A study of Homo sapiens with 3 samples.

Results

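RNA editing clusters were examined in the genes of the RNA polymerase II (Pol II) machinery: the polymerase subunits, the general transcription factors, TFIID and the other TAF proteins, Mediator, and the kinases and elongation factors that act on Pol II. Members were chosen by gene symbol alone, and a cluster counted when any gene name it carries matched the family patterns POLR2A to POLR2M, MED, TAF, GTF2 or SUPT, or was CDK7, CDK8, CDK9, CDK12, CDK13, CCNT1 or CCNT2. The rule gave 417 of 40843 clusters, in 77 of 9904 gene names. It also takes in proteins outside these complexes: TAF1A, TAF1C and TAF1D belong to SL1, a factor of RNA polymerase I, TAF15 is an RNA-binding protein of the FET family, TAF5L, TAF6L and SUPT20H belong to the coactivator SAGA, and GTF2I encodes the DNA-binding factor TFII-I.

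The data come from a STAMP experiment, in which an RNA-binding protein is fused to the cytidine deaminase APOBEC1 so that C bases near its binding places are converted to U. The series has 1 condition with 3 replicates: human HEK293T cells (Lenti-X HEK293XT, an established embryonic kidney line, genotype given as WT) that carried an RBFOX2-APOBEC1 fusion induced with doxycycline for 72 h. RBFOX2 is a splicing regulator, the treatment is labelled as transient transfection while the growth protocol describes stable lines, and the RNA was polyA-selected. No cells with APOBEC1 alone and no uninduced cells were analysed here, so editing that depends on RBFOX2 and editing by APOBEC1 without it cannot be told apart. The files hold no expression levels, so the cell type was not checked against markers. The replicates are described as biological.

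Pol II transcribes protein-coding genes. The general factors and TFIID, which recognises the core promoter, place it at the start site, and Mediator relays signals from bound activators to it. TFIIH with CDK7, and P-TEFb, which is CDK9 with a cyclin T, phosphorylate the C-terminal domain of its largest subunit, and DSIF and FACT act during elongation. What is measured here is editing of the mRNAs that encode these proteins, and not their activity.

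Clusters were found in every complex, most often in the mRNAs of the largest polymerase subunit POLR2A and the cyclin CCNT1. A cluster is a stretch of windows of 30 bases that passed the authors' test for enriched editing, and its edit fraction is the share of the C bases covered by reads within it that were edited. Replicates 1, 2 and 3 held 130, 160 and 127 member clusters in 55, 61 and 49 genes, with 857, 911 and 717 edited bases on 404, 493 and 360 edited reads. These were 0.909% (Wilson 95% interval 0.766% to 1.08%), 1.05% (0.903% to 1.23%) and 1.12% (0.940% to 1.33%) of the clusters of each replicate, a mean of 1.03% ± 0.107 (SD, n = 3), and the 3 intervals overlap. Intervals here cover counting error only, since no molecular identifiers are named that would separate copies of 1 molecule.

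Of the 77 genes, 33 (42.9%) had a cluster in every replicate, 22 in 2 replicates and 22 in 1. The background over all gene names of the series was 37.9%, so the share of member genes lies near it. In both sets, genes with more clusters were found in every replicate more often. Among genes with 3 or 4 clusters in all, it was 3 of 16 member genes (18.8%) and 37.2% of all genes, among those with 5 to 7 it was 11 of 16 (68.8%) and 76.0%, and among those with 8 to 12 it was 14 of 15 (93.3%) and 94.2%. At these numbers of clusters the member share was below that of all genes, a difference that was not tested. The genes with the most clusters over the 3 replicates were POLR2A (26), CCNT1 (20), POLR2B (18), TAF1D (18) and SUPT4H1 (14), all present in each replicate.

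**Figure D1:**
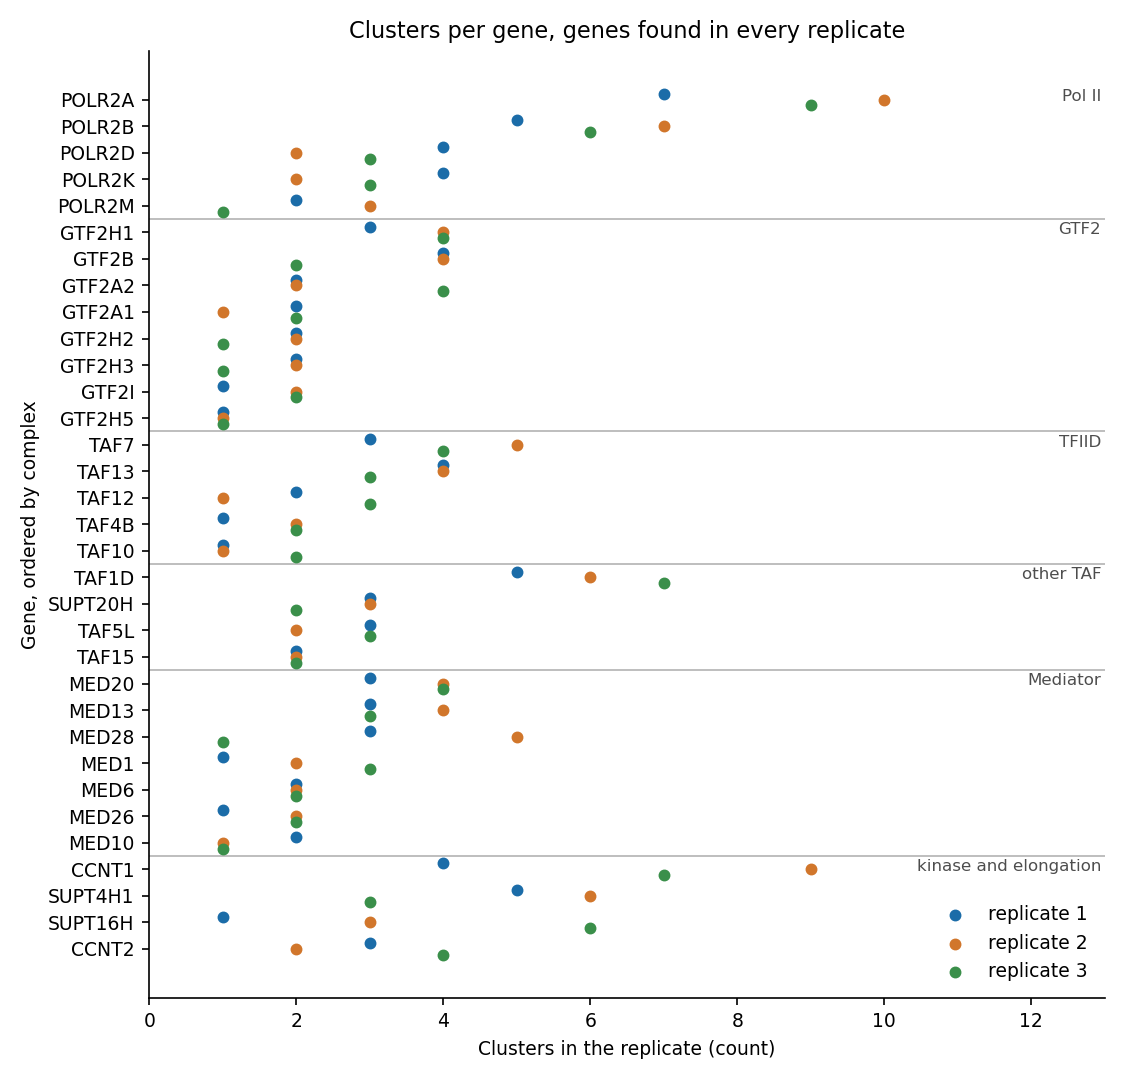
Number of clusters in each replicate (horizontal axis, count; 1 point per replicate) for the 33 genes with a cluster in all 3 replicates, grouped by complex. POLR2A had 7, 10 and 9 clusters and CCNT1 4, 9 and 7, while SUPT16H ranged from 1 to 6.

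The polymerase subunits had 22, 25 and 24 clusters in replicates 1, 2 and 3, from 8 of 13 coding genes that the rule matched in the RefSeq gene table. This group takes every name from POLR2A to POLR2M, and so includes POLR2M, whose product associates with Pol II. POLR2A, the catalytic largest subunit that carries the C-terminal domain, held the most edited bases of any member, with 133, 178 and 170. Its pooled edit fraction, all edited bases over all covered C bases of its clusters, was 0.741%, 0.684% and 0.864%. The second largest subunit POLR2B had 5, 7 and 6 clusters spread over 9 segments of the gene, with pooled edit fractions of 1.40%, 0.772% and 1.13%.

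The edited bases of POLR2A clusters lay almost entirely in 1 segment, as did their covered C bases. Of its clusters, 6 of 7, 7 of 10 and 8 of 9 lay in the segment numbered exon 54, the 3′-most segment of the gene that carried any, within 1545 bases at chr17:7416356-7417900 (hg19, plus strand). They held 97.0%, 93.3% and 98.8% of the edited bases in POLR2A clusters. They also held 17633 of 17954, 24686 of 26019 and 19540 of 19687 covered C bases of POLR2A clusters. Their pooled edit fraction, 0.732%, 0.672% and 0.860%, was thus close to that of all POLR2A clusters. Windows that did not pass the filter were not analysed. The clusters of this segment were rich in the editable base, with 38.4%, 40.7% and 38.7% C, against a median of 16.7%, 17.8% and 17.8% over the member clusters of each replicate. The longest cluster there spanned 150, 195 and 360 bases.

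Along this segment the edit fraction was highest at the 3′ end in each replicate. The locus chr17:7417751-7417900 had edit fractions of 1.66%, 3.68% and 2.12% (2.49% ± 1.06, SD, n = 3). All other clusters of the segment lay between 0.343% and 1.33%, so the values at that locus exceeded them in all 3 replicates. The locus was also poorer in C than most of the segment, at 17.8%, 14.3% and 17.8% of its bases. Edited reads there numbered 4 of 104, 10 of 77 and 14 of 100, or 3.85%, 12.99% and 14.0%, with replicate 1 the lowest. In replicate 1 its 22 edited bases thus lay on 4 reads, and its share of edited reads was not the highest. The other loci of the segment found in all 3 replicates had 3.45% to 7.96% in replicate 1. In replicates 2 and 3 the locus had the highest share among these loci. For this locus the exact conditional test over replicates gave p = 0.0209 and, after Benjamini-Hochberg adjustment over all 1297 loci, 0.564.

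**Figure D2:**
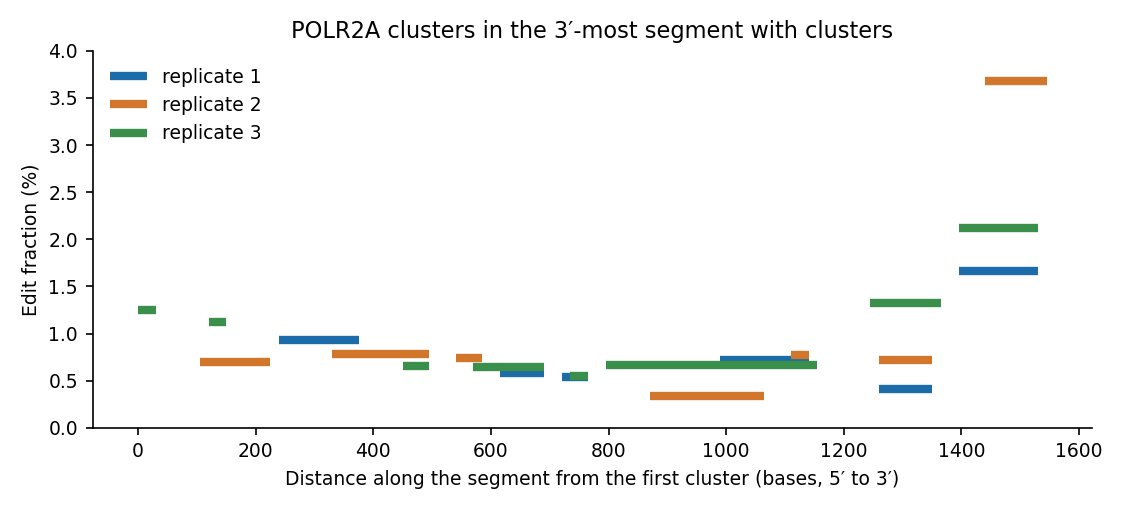
Edit fraction (vertical axis, %) of POLR2A clusters in the segment numbered exon 54 against the distance from the start of the first cluster (horizontal axis, bases); each bar spans 1 cluster and colours mark the replicates. The 3 bars that start between 1395 and 1440 bases, at 1.66%, 3.68% and 2.12%, lie above all others.

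POLR2K, a small subunit shared by the 3 nuclear polymerases, had 4, 2 and 3 clusters with a mean read depth of 56.2 to 196, the greatest of any member cluster. At its locus with the most edited reads, in the segment numbered exon 4, 21 of 368, 26 of 329 and 12 of 288 reads were edited. The edit fraction there was 0.894%, 0.837% and 0.576%. For these shares of edited reads the exact conditional test gave p = 0.153 before adjustment, which does not show equal editing. The locus chr8:101164043-101164162 (plus strand, exon 2) had edit fractions of 0.812%, 1.57% and 0.850%, on 7, 4 and 2 edited reads. Its edit fraction was the lower of the pair in replicate 1 and the higher in replicates 2 and 3. POLR2D, a subunit of the stalk, had 4, 2 and 3 clusters, all of which also carry the name AC006011.4. POLR2M, whose product Gdown1 binds Pol II, had 2, 3 and 1, and all 6 also carry GCOM1, the read-through gene that contains it. The reads of these 2 pairs cannot be assigned to a single gene from the names. POLR2C and POLR2G were found in replicate 3 only and POLR2F in replicate 2 only, each with 1 cluster, and POLR2E, POLR2H, POLR2I, POLR2J and POLR2L had none. The similar name POLR2J3, which the rule does not match, had a locus with a cluster in all 3 replicates. The absence for POLR2J therefore holds for that exact name only.

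Among the general transcription factors, GTF2H5, the smallest subunit of TFIIH, carried the most edited bases, 127 over the 3 replicates. It had exactly 1 cluster in each replicate, in the same place, chr6:158613175-158613369 (plus strand, exon 5), with 55 of 4279, 26 of 2639 and 46 of 4019 covered C bases edited. The edit fraction was 1.29%, 0.985% and 1.14% (1.14% ± 0.150, SD, n = 3) at a mean depth of 153, 155 and 137. Edited reads made up 6.94%, 5.05% and 8.38% of reads, over clusters of 165, 105 and 180 bases. The exact conditional test found no difference beyond counting error (p = 0.236 before adjustment), which does not show equal editing. The GTF2H5 locus was the member locus with the most edited reads, 71 in all.

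The clusters of the other general factors lay in 1 to 6 segments of each gene. GTF2B, which is TFIIB and bridges the promoter complex to the polymerase, had 4, 4 and 2 clusters over 6 segments, none of them found in all 3 replicates, and 27, 43 and 4 edited bases. GTF2A2, the small subunit of TFIIA, had 2, 2 and 4, of which the locus chr15:59934366-59934461 recurred with edit fractions of 1.56%, 0.620% and 1.66%. In GTF2H1 of TFIIH there were 3, 4 and 4, of which none was found in all 3 replicates. The background over all clusters of the series was 10.6%, 9.86% and 13.1% in replicates 1, 2 and 3, so none among so few clusters is not particular to these genes. TFIIE (GTF2E1 and GTF2E2) and TFIIF (GTF2F1 and GTF2F2) had 6 clusters each over the 3 replicates.

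GTF2H2 and GTF2I lie in regions with near-identical copies, so their reads may be shared with those copies and these counts are uncertain. GTF2H2 had 2, 2 and 1 clusters, its copies GTF2H2B and GTF2H2C had 1 each in replicates 3 and 1, and each of those rested on 1 edited read. GTF2I had 1, 2 and 2 clusters, GTF2IRD1 had 1 in replicate 2, and GTF2IRD2 and GTF2IRD2B had none. GTF2H2B was the only name with a cluster that was not among the coding genes of the RefSeq table.

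TFIID had 24, 28 and 15 clusters in 15 of 17 coding genes. TAF7 held the most edited bases, 12, 49 and 20, in 3, 5 and 4 clusters that all lay in 1 segment within chr5:140698148-140700112 (minus strand). Its pooled edit fraction was 0.735%, 2.13% and 1.32%, highest in replicate 2, and no TAF7 cluster was found in all 3 replicates. All 12 of its clusters also carry the name AC005618.1.

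Other TFIID mRNAs differed in how often their clusters returned. TAF13, which pairs with TAF11 by a histone fold, was the one TFIID gene with a locus in all 3 replicates: chr1:109607168-109607227 (minus strand) had edit fractions of 1.63%, 1.31% and 2.38% from 2 edited reads each. TAF12 had 2, 1 and 3 clusters and TAF10 1, 1 and 2. TAF10 was read deeply, at 85.3 to 161, and had low pooled edit fractions of 0.538%, 0.444% and 0.479%. TAF2, TAF4, TAF8, TAF9, TAF9B and TAF11 had clusters in replicates 1 and 2 only. TAF1, the largest TFIID subunit, had a single cluster, on 1 edited read in replicate 1, and its paralog TAF1L had none. TAF9 had 3, 1 and 0 clusters on chromosome 5 and its paralog TAF9B 1, 2 and 0 on chromosome X.

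The TAF genes whose proteins act outside TFIID, together with SUPT20H of SAGA, had 14, 16 and 16 clusters. TAF1D gave 5, 6 and 7 of these, and 14 of its 18 clusters also carry names of snoRNAs that lie within the gene. Its pooled edit fraction was 1.01%, 1.17% and 2.36%, highest in replicate 3. It had 2 loci in all 3 replicates, of which the more 5′, at chr11:93469330-93469464 (minus strand), had 1, 7 and 2 edited reads and edit fractions of 0.677%, 1.59% and 1.83%. TAF15 had 2 clusters in each replicate. Its locus chr17:34173911-34174000 (plus strand) had 5 of 217, 15 of 234 and 5 of 150 reads edited and edit fractions of 0.552%, 0.795% and 0.602%, a difference with an exact p of 0.0881 and an adjusted p of 0.869. The clusters of replicates 1 and 3 lay next to each other there and were joined by that of replicate 2.

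Mediator had 28, 42 and 30 clusters, the most of any complex, in 22 of 31 coding genes. Of these, 4 of 100 overlapped a cluster of each other replicate. The background over all clusters of the series was 10.6%, 9.86% and 13.1% in replicates 1, 2 and 3, and the other complexes ranged widely, with 3 of 67 in TFIID (4.48%), 6 of 67 in the general factors (8.96%), 7 of 66 in the kinase and elongation genes (10.6%), 7 of 46 in the other TAF group (15.2%) and 22 of 71 in the polymerase subunits (31.0%), 15 of them in POLR2A. The low share is thus not particular to Mediator, and differences between complexes were not tested. Median read depth was 19.2, 19.3 and 14.6 in Mediator and 52.6, 65.9 and 57.1 in the polymerase subunits, and the part of depth in this was not tested. The median edit fraction of Mediator clusters was 2.47%, 1.79% and 2.12%, against 1.15%, 1.10% and 1.07% in the polymerase subunits, with no overlap between replicates. At low depth a cluster passes only with a high edit fraction, so these medians cannot be read apart from depth.

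In the head module of Mediator, MED20 held the most edited bases of the complex, with 21, 18 and 28 in 3, 4 and 4 clusters, all in 1 segment of the gene. Its locus chr6:41873273-41873437 (minus strand) had edit fractions of 3.01%, 1.57% and 2.78%, on 4, 4 and 1 edited reads, but the clusters of replicates 2 and 3 shared no base there and were joined by that of replicate 1. MED28 had 3, 5 and 1 clusters, again all in 1 segment, and its locus chr4:17626830-17627054 (plus strand) had 6 of 128, 4 of 77 and 2 of 47 reads edited, with edit fractions of 0.732%, 1.81% and 0.977%. These 2 genes gave the 4 Mediator clusters that overlapped a cluster of each other replicate.

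The tail and kinase modules showed scattered clusters. MED23, a tail subunit, had 5, 5 and 0 clusters over 9 segments, on 14 edited reads in all. MED13, which ties the kinase module to the core, had 3, 4 and 3. CDK8, the kinase of that module, had 0, 4 and 0, and MED14, the scaffold of the core, had 0, 3 and 0. In the middle module, MED1, MED10 and MED26 had clusters in each replicate. All 5 clusters of MED26 also carry other gene names.

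All 10 kinase and elongation genes had a cluster, 18, 26 and 22 in the 3 replicates. CCNT1, the cyclin of P-TEFb, had 26, 32 and 31 edited bases, and its 20 clusters lay in a single segment, numbered exon 0, between chr12:49082413-49087872 (minus strand, so that this is the 3′-most segment). Its pooled edit fraction was 2.15%, 1.66% and 2.70%, but a single locus had a cluster in all 3 replicates, with 2 of 69, 3 of 46 and 2 of 32 reads edited and edit fractions of 2.50%, 1.94% and 2.47%. There the clusters of replicates 2 and 3 shared no base and were joined by that of replicate 1, so that CCNT1 was edited in the same segment in each replicate but no base lay in a cluster of all 3. Its partner CCNT2 had 3, 2 and 4 clusters and their kinase CDK9 had 1, in replicate 3.

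SUPT4H1, the small subunit of DSIF, had 5, 6 and 3 clusters and 67, 24 and 16 edited bases. At its locus with the most edited reads, chr17:56423110-56423244 (minus strand), 21 of 115, 4 of 43 and 6 of 47 reads were edited, or 18.3%, 9.30% and 12.8%. These were the largest mean share of edited reads among the 20 member loci found in all 3 replicates, 13.4% ± 4.52 (SD, n = 3), with edit fractions of 1.57%, 1.21% and 1.17%. The exact conditional test found no difference between replicates beyond counting error (p = 0.361 before adjustment). The clusters spanned 135, 45 and 45 bases, so that unlike stretches are compared and equal editing is not shown. A second locus, chr17:56422690-56422824, had edit fractions of 1.66%, 1.08% and 2.41%. SUPT5H, the large subunit of DSIF, had 1 cluster, on 1 edited read in replicate 2.

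SUPT16H, a subunit of the histone chaperone FACT, had unequal numbers in the replicates, with 1, 3 and 6 clusters and 3, 16 and 56 edited bases. Its depth was high throughout, at 61.0 to 166. Pooled edit fractions were 1.21%, 0.691% and 0.740%. CDK7 had 0, 3 and 0 clusters, CDK12 2, 0 and 1, and CDK13 2, 2 and 0.

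By position, the 417 clusters formed 335 loci, chains of overlapping clusters on 1 strand, of which 274 were found in 1 replicate, 41 in 2 and 20 (5.97%) in 3. Over all clusters of the series the share found in 3 was 4.77%. Counted by cluster, 17 of 130, 17 of 160 and 15 of 127 member clusters (13.1%, 10.6% and 11.8%) overlapped a cluster of each other replicate by at least 1 base, and the background over all clusters was 10.6%, 9.86% and 13.1%. The member share exceeded that of the other clusters in 2 of 3 replicates, by 0.663 percentage points on average (SD 1.92, n = 3). The 3 values share their overlaps, so this SD is not that of independent values and no test was made. The difference was 3.97 percentage points (SD 0.778, n = 2) without replicate 1 and -0.320 without replicate 3, where the share is that found in both remaining replicates. It was -4.29 at a depth of at least 50 and -0.408 at a score of at least 0.99. Of the 20 loci, 14 (70%) had a base that lay in a cluster of every replicate, against 85.1% of all 1586 loci in 3 replicates, and 6 were joined only through overlaps in pairs. The 20 loci lay in 12 genes, led by POLR2A with 6 and POLR2K, SUPT4H1 and TAF1D with 2 each.

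The share of edited reads at a locus was then compared between replicates. This could be tested at 19 of the 20 loci, those with exactly 1 cluster per replicate (13 of them with a base in all 3), by an exact conditional test of edited and unedited reads with Benjamini-Hochberg adjustment over all loci of the series. None passed an adjusted p of 0.05, and 1 had an unadjusted p under 0.05, the POLR2A locus chr17:7417751-7417900. The background was 0.463% (6 of 1297 loci). With edited bases over covered C bases in place of reads, 1 member locus passed: POLR2A chr17:7417601-7417720, with edit fractions of 0.413%, 0.716% and 1.33% and an adjusted p of 0.0404 by the same exact test, which takes bases of 1 read as independent. The background of that test was 3.55% (46 of 1297 loci), so 1 of 19 member loci is near it. None of the 19 loci had the same start and end in all 3 replicates, and each cluster had passed the filter in its own replicate. Both tests thus compare unlike stretches and cannot show that a locus was edited equally.

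**Figure D3:**
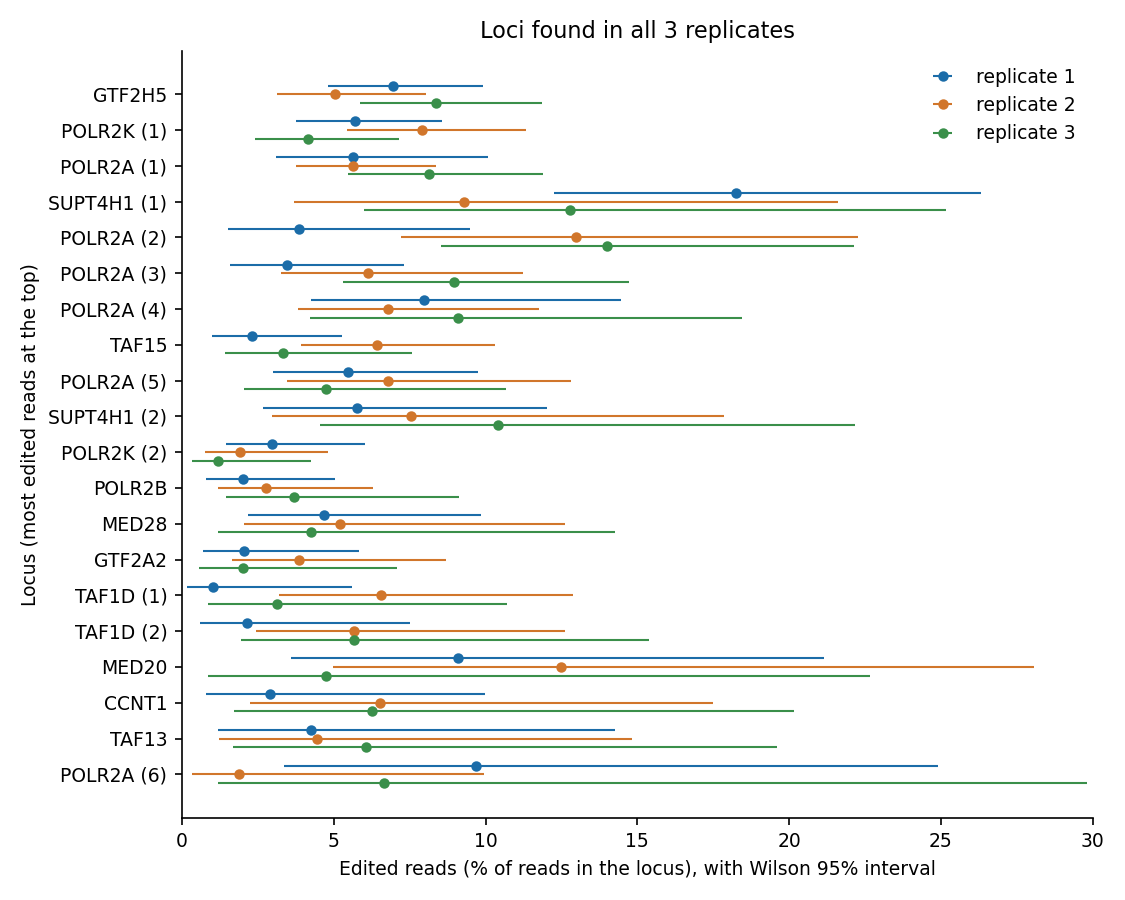
Share of reads with an edit (horizontal axis, % of the reads in the locus) at the 20 member loci found in all 3 replicates, 1 point per replicate with its Wilson 95% interval; loci of 1 gene are numbered in the order shown. The intervals of the replicates overlap at all 20 loci, and SUPT4H1 (1) has the highest mean, 13.4%.

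Compared with the other clusters of the same replicate, member clusters were read slightly more deeply and had a similar edit fraction. The median edit fraction was 1.63%, 1.52% and 1.66% in member clusters and 1.64%, 1.65% and 1.80% in the others, a difference of -0.0946 percentage points ± 0.0764 (SD, n = 3) that was negative in 3 of 3 replicates. The exact sign-flip permutation test over replicates, two-sided, gave p = 0.25, the smallest value that 3 replicates allow. The median read depth was 29.1, 28.7 and 25.0 against 25.1, 24.6 and 21.0, higher in 3 of 3 replicates.

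Since clusters that passed the filter have a lower edit fraction at a greater depth, the comparison was repeated within depth classes. The mean of the class differences, weighted by member clusters, had the opposite sign, with 0.213, 0.0836 and 0.340 percentage points in replicates 1, 2 and 3 and a mean of 0.212 ± 0.128 (exact sign-flip p = 0.25). In clusters with a depth under 10 the medians were 6.09%, 7.14% and 5.61% in members and 4.88%, 5.13% and 5.08% in the others, over 19, 17 and 20 member clusters. At a depth of at least 50 they were 0.813%, 0.788% and 1.00% against 0.774%, 0.794% and 0.782%. The classes did not all go 1 way. The mean difference over replicates was 1.25 percentage points under 10, -0.0576 at 10 to 20 (the class with 109 member clusters), 0.295 at 20 to 30, -0.0353 at 30 to 40, 0.116 at 40 to 50 and 0.0851 at 50 or more. The pooled edit fraction, in which each covered C base counts the same and depth is not held fixed, was 1.23%, 1.09% and 1.15% in members and 0.937%, 0.933% and 0.996% in the others, higher in 3 of 3 replicates (exact sign-flip p = 0.25). The direction of the difference therefore depended on the summary that was used and on the depth class.

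**Figure D4:**
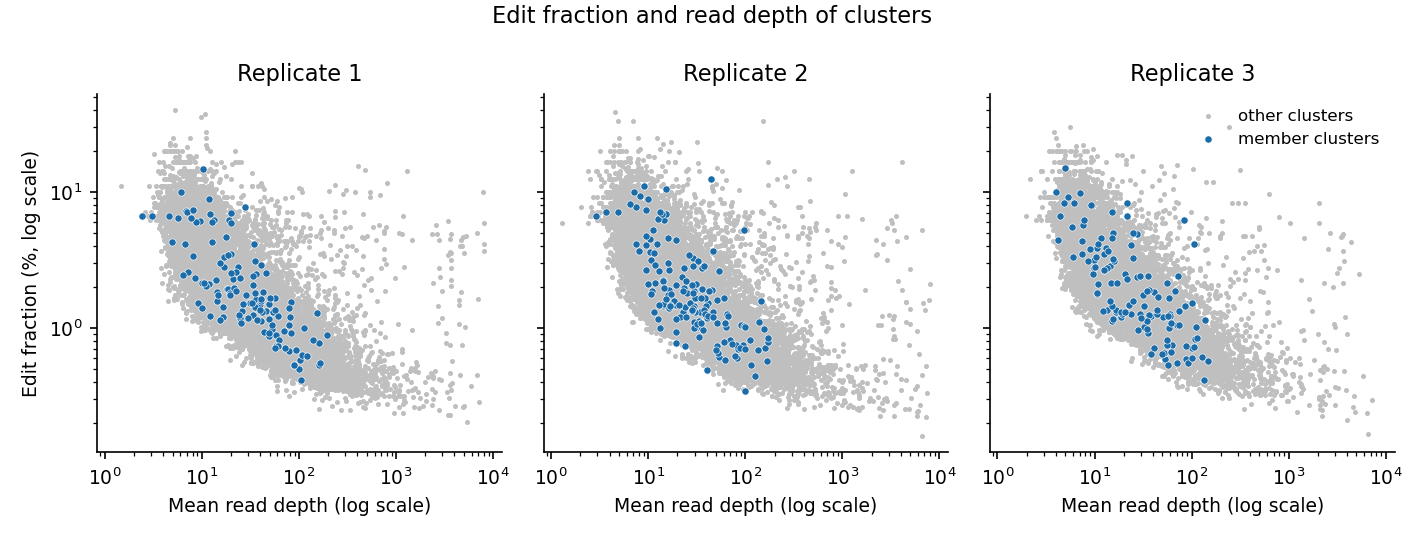
Edit fraction (vertical axis, %, log scale) against mean read depth (horizontal axis, log scale) of each cluster, in 1 panel per replicate; blue points are the 130, 160 and 127 member clusters and grey points all others. Member clusters lie within the band of the other clusters, from a depth of 2.42 up to 196.

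The authors' score, a value up to 1 of a cumulative negative binomial distribution that takes the mean edit fraction of clusters as its parameter, was at least 0.99 in 81 of 130, 94 of 160 and 80 of 127 member clusters (62.3%, 58.8% and 63.0%). The background was 60.8%, 60.1% and 61.2%, so the shares lie near it. Member clusters had a lower C content than others in each replicate, with medians of 16.7%, 17.8% and 17.8% of bases against 17.8%, 18.7% and 20%. The median length was 45 bases in both sets.

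Many member clusters rested on few reads. A single edited read gave 46, 53 and 50 of them (35.4%, 33.1% and 39.4%, against 27.9%, 31.0% and 33.0% of the others), and in 22, 25 and 26 of these the read held at least 3 edited bases. That was 16.9%, 15.6% and 20.5% of member clusters and 11.95%, 12.8% and 13.8% of the others, higher in 3 of 3 replicates (exact sign-flip p = 0.25). The most edited bases on 1 read were 10, in MED6 at chr14:71050952-71051071 in replicate 1, followed by 9 each in GTF2H1 (replicate 1), MED8 and CCNT1 (replicate 3). Such clusters came from 44 genes.

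The highest edit fractions at a mean depth of at least 50 came from C bases that few reads covered. TAF1D at chr11:93463880-93463909 in replicate 3 had 6.25%, which was 1 edited base of 16 covered at a depth of 84 reads, or 8 reads per C base. SUPT4H1 at chr17:56429386-56429415 in replicate 2 had 5.26%, 1 of 19 covered, with 2.71 reads per C base at a depth of 97.7. GTF2I at chr7:74173366-74173410 in replicate 3 had 4.11%, 3 of 73, with 10.4 reads per C base at a depth of 106. In these clusters the deposited depth was therefore far above the coverage of the bases that can be edited. TAF7 at chr5:140698148-140698222 in replicate 2 was different, with 2.61%, or 15 of 575 covered C bases, at 52.3 reads per C base and a depth of 53.0. The next, TAF1D at chr11:93465625-93465699 in replicate 3, had 2.40% with 13 reads per C base at a depth of 72.9. Coverage per C base was under 50% of the mean depth in 22 of 417 member clusters (5.28%).

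Intronic clusters were 5 of 417, with 0 of 130 in replicate 1, 3 of 160 (1.88%) in replicate 2 and 2 of 127 (1.57%) in replicate 3. For the count of 0, a bound of 3 of 130 clusters (2.31%) was taken, which is not a Wilson limit. Intronic clusters were rare among the other clusters too, at 2.20%, 2.34% and 1.73%. The 5 in members lay in CDK13, MED21 and MED26 in replicate 2 and in MED6 and TAF13 in replicate 3. Each rested on 1 or 2 edited reads, with edit fractions of 2.83% to 11.1%. Of the 250 exonic clusters on the minus strand, whose segments are numbered from the lower coordinate so that 0 is the 3′-most, 130 (52.0%) lay in segment 0, from 30 of 39 genes. The same share over all clusters of the series was not computed, so this placement cannot be read as particular to the members.

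Of 99 coding genes that the rule matched in the RefSeq table, 76 had at least 1 cluster and 23 had none. Besides the 5 polymerase subunits, these were GTF2A1L, GTF2H2C_2, GTF2H4, GTF2IRD2 and GTF2IRD2B among the general factors, TAF1L and TAF7L in TFIID, TAF1B of SL1 and SUPT3H of SAGA. In Mediator they were MED7, MED11, MED12, MED22, MED24, MED25, MED29, MED30 and MED31. Windows that did not pass the filter and the reads of these genes were not analysed here, so low expression, few covered C bases and little editing cannot be told apart for them. The share of all RefSeq coding genes with a cluster was not computed. The count of 76 of 99, and those of each complex, thus cannot be read as particular to the members.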

How the data were processed

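C-to-U editing was measured by RNA sequencing in 3 replicates of HEK293T cells that expressed RBFOX2-APOBEC1. The submitters' processing notes name STAR and the build hg19, without versions. For each replicate on its own, the authors found edited positions with SAILOR, from which common SNPs are dropped, and then used FLARE: windows of 30 bases were tested with a zero-truncated Poisson model, whose rate depends on exon or intron and on depth, kept at an adjusted p of 0.1 and merged within 15 bases. The deposited counts (reads, edited reads, edited bases and covered C bases) are not scaled to library size. The edit fraction deposited by the authors is edited over covered C bases and was recomputed without difference in all 40843 clusters. The authors' mean depth is coverage over the whole cluster. The authors' score is a value of the cumulative negative binomial distribution.

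Values were computed in Python 3.11.15 (pandas 2.3.3, NumPy 2.4.6 and SciPy 1.17.1) and drawn with matplotlib 3.10.9. Only clusters that passed the filter were analysed, and 53 of 417 carry another gene name too. Clusters of different replicates were matched where they shared 1 base or more on 1 strand. Tests were the exact sign-flip permutation test over 3 replicates and the exact conditional test of edited reads per locus (chi-square where edited reads exceed 300), adjusted over all loci at 0.05. The exact conditional test was first tried on simulated edited reads, and the overlaps of a sample of the clusters were checked by a direct search. The sign-flip test was not tried in this way. The members and lists were chosen with earlier results of these data known. Genes were named if they had one of the 15 recurrent loci with the most edited reads, were among the 5 with the most clusters, had one of the 5 largest edit fractions at a depth of at least 50, led their complex in edited bases, had close copies, an intronic cluster or no cluster; further genes were named after their values were seen. Alternatives were minimum scores and depths, depth classes, means, a log2 scale of the authors' fractions, a narrower list, other overlaps and leaving out each replicate. Gene symbols were matched to RefSeq (GRCh38.p14) for names only, and sequences and motifs were not analysed here.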

Additional observations from a re-analysis of the deposited data

How the results depend on the processing

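The mean member share of all clusters kept within its spread under the minimum score (1.04%), the minimum depth (1.04%), the narrow list (0.934%) and without each replicate (0.982% to 1.09%). At the minimum depth the replicates were further apart, with an SD of 0.315 against 0.107. The narrow list left out TAF1A to TAF1D, TAF15, the TFII-I family and close copies. Counting a cluster only where the member is named first, an alternative chosen after seeing the data, gave 0.898%. Clusters per replicate, 139 on average, were 85 at a score of at least 0.99 and 37 at a depth of at least 50, and ranged from 128.5 to 145 without each replicate. Genes with a cluster in every replicate were 10 at that depth, not 33, and 36 to 48 when 2 replicates were asked for.

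The difference in median edit fraction changed sign within depth classes (0.212 percentage points), at a depth of at least 50 (0.0851) and, chosen after seeing the data, at a coverage of at least 50 reads per C base (0.0543). It was -0.275 at a score of at least 0.99 and -0.139 to -0.0720 without each replicate. The difference in the share found in all 3 replicates changed sign at a depth of at least 50 (-4.29 percentage points) and a score of at least 0.99 (-0.408). Without each replicate it ranged from -0.320 to 3.97, turning negative without replicate 3, where the share is that found in both others. The 3.97 was without replicate 1, with an SD of 0.778 over the remaining replicates, whose values share their overlaps. The causes of these changes were not tested.

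Loci that differed between replicates were 1, not 0, of 19 by edited bases, a setting that also calls 46 rather than 6 of all 1297 loci, and 0 without each replicate. No member locus had the same start and end in all 3 replicates, so that alternative gave no value. The share with a score of at least 0.99, 61.3%, was 54.9% at a depth of at least 50 and 97.9% for scores of at least 0.95, which is a looser bound, and ranged from 60.5% to 62.6% without each replicate. No paired analysis between conditions was possible because there is only 1 condition, while members and other clusters were compared within each replicate. Values that rest on 1 edited read, in 149 of 417 clusters, are uncertain, and the part of depth in this was not tested.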
